A study of Caenorhabditis elegans with 2 samples.

Results

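The 41 genes described here encode factors that start, extend and end protein synthesis in the nematode Caenorhabditis elegans. They were chosen by name among 19973 protein-coding nuclear genes of the Ensembl annotation of build WBcel235, as every gene whose symbol begins with eif, eef, iff, ifg, ife, iftb, erfa or etf, a hyphen and a digit. The names divide into 31 initiation factor genes, 8 elongation factor genes (the eIF5A genes iff-1 and iff-2 among them) and 2 termination factor genes. For each gene the strongest summit of F33H1.4 binding was taken from 1000 bp upstream to 200 bp downstream of any annotated 5' end, the promoter window.

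The binding data came from chromatin immunoprecipitation and sequencing of whole young adult worms at 62.5 hours, in 2 biological replicates of 1 strain, RW12303. In this strain the gene F33H1.4, on chromosome II and assayed as a transcription factor per the labels, carries a TY1, EGFP and 3xFLAG tag inserted by CRISPR, and an antibody against GFP was used for the precipitation. Per the labels, worms were synchronised as L1 larvae starved after bleaching, and chromatin was sonicated to 200 to 800 bp. All animals carried the tag, no second condition was assayed and no control library was analysed here, so binding by the tagged protein and a signal that open or strongly transcribed chromatin gives to any precipitation cannot be told apart. Whole animals mix all tissues, so a strong peak in few cells and a weaker one in many cells cannot be told apart. The data were peak lists, which give no read depth.

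Initiation begins when eIF2 brings the initiator tRNA to the small ribosomal subunit, helped by eIF1, eIF1A and the many-subunit scaffold eIF3. The cap-binding protein eIF4E and its partner eIF4G recruit the mRNA, and eIF2B recharges eIF2 with GTP after each round. In elongation eEF1A delivers aminoacyl-tRNA, the eEF1B subunits reload eEF1A with GTP, eEF2 moves the ribosome along by a codon and eIF5A relieves stalls, until eRF1 and eRF3 release the finished chain.

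A promoter summit stood in the series list, the list the authors made from both replicates, at 24 of the 41 genes, and several of these summits share stretches of DNA. To show the shared stretches, the 101 bp centred on the series summit are printed for 6 genes that hold one, and for ife-3 as the member of the eIF4E family with a peak. They are read from the RefSeq genome of build WBcel235, 5' to 3' on the strand of the gene. Capitals mark the stretches of at least 12 bases that occur, on either strand, in the summit window of another translation factor gene; the ife-3 window holds none. The windows lie at chrIII:6972053-6972153, chrX:7823281-7823381, chrIV:15037117-15037217, chrII:8561375-8561475, chrIII:9746828-9746928, chrV:6433723-6433823 and chrV:8201-8301, in the order printed. The strand is minus for eef-1A.1, iff-2, iff-1 and ife-3 and plus for eef-1A.2, eef-1B.2 and erfa-1.
eef-1A.1: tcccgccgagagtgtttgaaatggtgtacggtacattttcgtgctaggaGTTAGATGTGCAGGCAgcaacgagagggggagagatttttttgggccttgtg
eef-1A.2: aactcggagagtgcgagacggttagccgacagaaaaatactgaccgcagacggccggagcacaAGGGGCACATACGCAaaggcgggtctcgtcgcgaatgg
eef-1B.2: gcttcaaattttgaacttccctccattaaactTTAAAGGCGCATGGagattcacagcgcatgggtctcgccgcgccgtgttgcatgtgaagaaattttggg
iff-2: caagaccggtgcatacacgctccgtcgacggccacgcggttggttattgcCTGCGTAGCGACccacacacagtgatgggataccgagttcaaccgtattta
iff-1: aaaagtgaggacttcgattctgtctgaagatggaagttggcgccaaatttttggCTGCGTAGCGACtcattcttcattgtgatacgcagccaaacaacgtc
erfa-1: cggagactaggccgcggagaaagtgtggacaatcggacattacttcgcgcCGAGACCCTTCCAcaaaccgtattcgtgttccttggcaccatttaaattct
ife-3: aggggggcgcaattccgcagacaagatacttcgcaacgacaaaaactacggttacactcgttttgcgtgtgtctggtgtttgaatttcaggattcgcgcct

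All 8 elongation factor genes had a promoter peak in the series list and again in the list of each replicate. Of the 31 initiation factor genes, 15 had one in the series list, 10 in replicate 1 and 15 in replicate 2. Of the 2 termination factor genes, erfa-1 had one in all 3 lists and erfa-3 in none. The 41 genes together gave 58.5%, with an exact (Clopper-Pearson) 95% interval of 42.1 to 73.7% that covers counting error only, against 12.8% of all protein-coding genes. The count was 22 in the authors' conservative list, which lacks eif-2alpha and eif-3.H, against 12.5% of all genes, 19 in replicate 1, against 9.95%, and 24 in replicate 2, against 12%. In the unthresholded series list, which also keeps weak and poorly repeated peaks, 38 of the 41 genes had a summit in the window, against 46.8% of all genes.

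**Figure D1:**
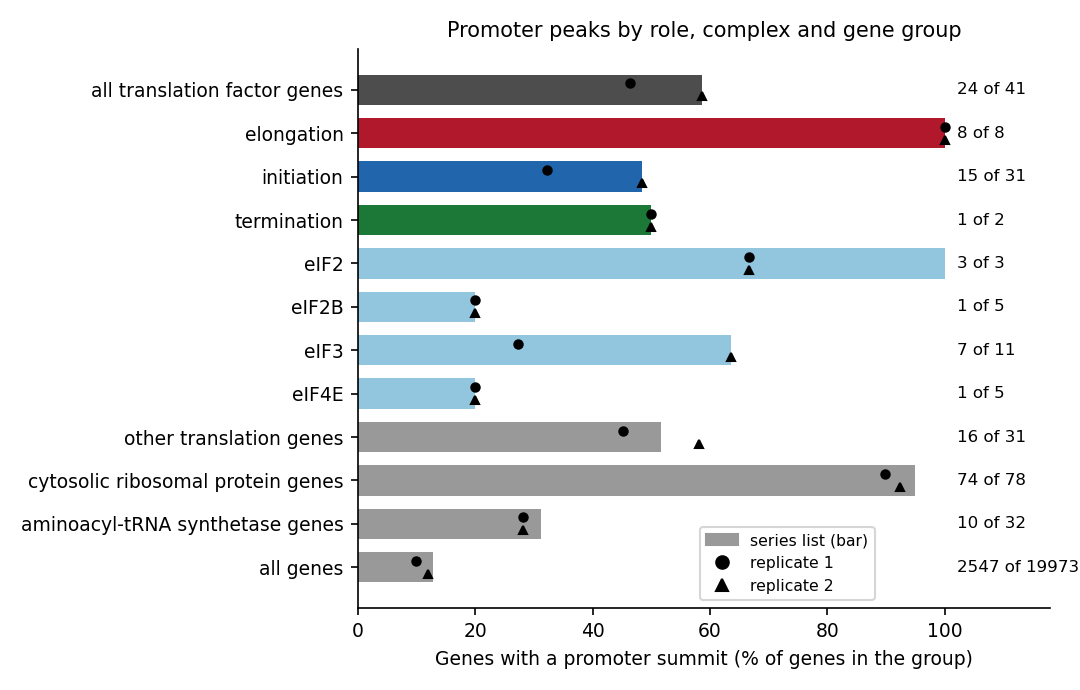
Share of genes with a promoter summit (x axis, % of genes in the group) for the translation factor genes, their roles and 4 complexes, with other gene groups and all genes beneath. Bars give the series list with its count at the right, circles replicate 1 and triangles replicate 2; elongation reaches 8 of 8 in all 3 lists, initiation 15 of 31 and all genes 2547 of 19973 in the series list.

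The signal is the authors' value per peak and has no stated unit, so values are set side by side within a list and ranks are given beside them. The 3250 peaks of the series list were ranked from the strongest. The 24 peaks had a median signal of 346, against 217 over the 2030 promoter peaks of all genes. Their median percentile among all series peaks was 72, against 60.7. Taking the strongest summit of each gene, as for the 24, the 2547 genes with a promoter peak had medians of 273 and 66.9. The 8 elongation peaks had a median signal of 552 and a median percentile of 80.7. The 15 initiation peaks had a median signal of 193.9 and a median percentile of 57.1.

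eEF1A is among the most abundant proteins of a cell, and it is encoded by eef-1A.1 and eef-1A.2. The eef-1A.1 peak, at 6971887 to 6972299 on chromosome III, had a signal of 2988 in the series list, 1105 in replicate 1 and 1898 in replicate 2. It ranked 29 in the series list, 37 of 2219 in replicate 1 and 26 of 2733 in replicate 2, above every other translation factor gene in each list. Its summit lay 391 bp upstream of eef-1A.1 but 150 bp upstream of the divergent gene rfc-4, a subunit of the clamp loader of DNA replication. The peak of eef-1A.2, at 7823196 to 7823470 on the X chromosome, had a signal of 453 in the series list, 166 in replicate 1 and 290 in replicate 2. It lay 323 bp upstream with no other gene's window over it, and ranked 753 in the series list but 9 of the 93 peaks on X. The signal of eef-1A.1 over eef-1A.2 was 6.59 in the series list, 6.64 in replicate 1 and 6.54 in replicate 2.

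The subunits of the exchange factor eEF1B all had peaks. At eef-1B.1 the peak at 7973191 to 7973567 on chromosome III had a signal of 932 in the series list (rank 367), 372 in replicate 1 and 566 in replicate 2. Its summit lay 2 bp inside the gene, in the annotated 5' UTR, and 333 bp upstream of the divergent gene aco-2, mitochondrial aconitase. At eef-1B.2, its paralogue, the peak at 15037045 to 15037326 on chromosome IV had a signal of 563 in the series list (rank 617), 198 in replicate 1 and 378 in replicate 2, with the summit 164 bp upstream. The signal of eef-1B.1 over eef-1B.2 was 1.66 in the series list, 1.87 in replicate 1 and 1.5 in replicate 2. At eef-1G, the scaffold subunit, the peak at 10965573 to 10965793 on chromosome V had a signal of 354 in the series list (rank 897), 123 in replicate 1 and 224 in replicate 2. Its summit lay 39 bp upstream of eef-1G and 141 bp upstream of the divergent gene ctf-4.

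At eef-2, the translocase gene, the peak at 9163374 to 9163650 on chromosome I had a signal of 653 in the series list (rank 538), 303 in replicate 1 and 343 in replicate 2. The summit lay 12 bp upstream of eef-2 and 253 bp upstream of the divergent gene clsp-1. The eIF5A genes differ in where they act, iff-1 being required in the germ line and iff-2 in the soma. The iff-2 peak, at 8561310 to 8561554 on chromosome II, had a signal of 541 in the series list (rank 641), 203 in replicate 1 and 340 in replicate 2, with its summit 58 bp upstream. The iff-1 peak lay at 9746765 to 9747000 on chromosome III. Its signal was 334 in the series list (rank 940), 141 in replicate 1 and 202 in replicate 2. Its summit lay in an intron of iff-1, 274 bp upstream of the nearest of its 5' ends. A further summit lay in the iff-1 window. The signal of iff-2 over iff-1 was 1.62 in the series list, 1.44 in replicate 1 and 1.68 in replicate 2. In the 3 elongation paralogue pairs the same gene thus had the higher signal in both replicates and in the series list made from them. The order of the eef-1A pair rests on a peak nearer to rfc-4. Counting the nearest gene alone, eef-1A.1 had no peak while eef-1A.2 kept its own. The weakest elongation peak, iff-1, still ranked 940 of 3250.

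**Figure D2:**
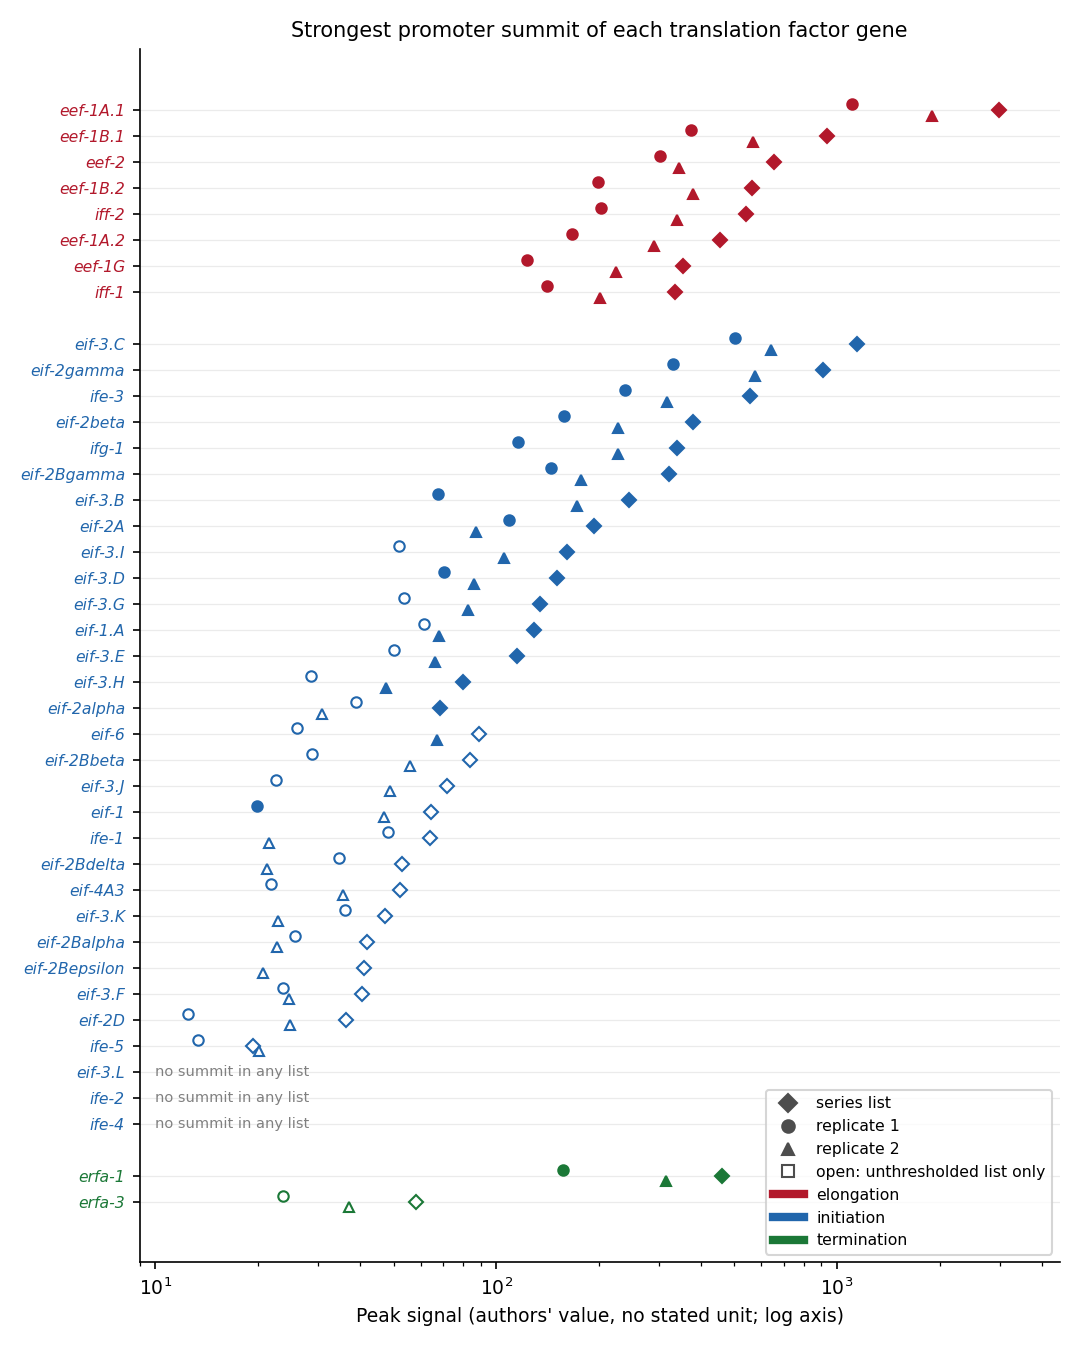
Signal of the strongest promoter summit (x axis, the authors' value with no stated unit, log axis) of each of the 41 genes in the series list (diamonds), replicate 1 (circles) and replicate 2 (triangles), coloured by role. Open symbols are summits found in an unthresholded list but not in the thresholded one; all 8 elongation genes have filled symbols in every list, while 16 initiation genes lack a filled diamond and eif-3.L, ife-2 and ife-4 have no summit at all.

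The GTPase eIF2 had a peak at each of its 3 subunit genes, but with very different strengths. At eif-2gamma, the GTP-binding subunit, the peak at 2312928 to 2313313 on chromosome I had a signal of 910.0 in the series list (rank 379), 329 in replicate 1 and 574 in replicate 2, 144 bp upstream. At eif-2beta the peak at 8027894 to 8028143 on chromosome I had 378 in the series list (rank 858), 158 in replicate 1 and 227 in replicate 2, 231 bp upstream of a 5' end and in an intron. At eif-2alpha, the subunit phosphorylated under stress, the peak at 2072513 to 2072852 on chromosome I was the weakest of the 24, with 68.6 in the series list (rank 3035) and a summit 3 bp inside the gene. It was in neither thresholded replicate list, and the unthresholded lists gave 38.9 in replicate 1 and 30.8 in replicate 2. A further series summit lay in the body of eif-2alpha, outside its promoter window. With a window of 2000 bp upstream to 500 bp downstream the strongest summit was instead that of the gene in front, phb-1, with a signal of 1111 at 1784 bp upstream, and the percentile was 91.3 in place of 6.63.

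Of the 5 genes of eIF2B, the exchange factor of eIF2, eif-2Bgamma alone had a peak in the series list. That peak, at 6968431 to 6968704 on chromosome II, had a signal of 321 in the series list (rank 972), 145 in replicate 1 and 177 in replicate 2. Its summit lay 909 bp upstream of eif-2Bgamma, farther than at any other of the 24 genes, and in an intron of another gene. It was within the annotated non-coding genes sup-39, given as a small nuclear RNA gene, and C15F1.14, and 6 bp from mir-1831. By position the peak cannot be given to eif-2Bgamma. With the narrower window of 500 bp upstream to 100 bp downstream it was not counted. The other 4 genes had summits in the unthresholded series list, with signals of 83.9 at eif-2Bbeta, 52.8 at eif-2Bdelta, 41.9 at eif-2Balpha and 41.0 at eif-2Bepsilon.

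Of the 11 eIF3 genes that the naming rule selects, 7 had a promoter peak in the series list, 3 in replicate 1 and 7 in replicate 2. The strongest was eif-3.C, whose peak at 9979740 to 9980054 on chromosome I had a signal of 1143 in the series list (rank 268), 501 in replicate 1 and 639 in replicate 2, 246 bp upstream. It was the strongest initiation factor peak in each list. At eif-3.B the peak at 14795070 to 14795262 on chromosome II had 245 in the series list (rank 1175), 67.4 in replicate 1 and 173 in replicate 2, 232 bp upstream. At eif-3.D the peak at 8971665 to 8972004 on chromosome III had 151 in the series list (rank 1723), 70.2 in replicate 1 and 86.2 in replicate 2, and its summit was nearer to the divergent gene R08D7.4, 57 bp upstream, than to eif-3.D, 257 bp upstream.

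The other 4 eIF3 peaks were in the thresholded lists of the series and of replicate 2 but not of replicate 1. The eif-3.I peak, at 2485570 to 2485703 on chromosome I, had 161 in the series list (rank 1637) and 106 in replicate 2, 221 bp upstream and 249 bp upstream of the divergent gene abtm-1. The eif-3.G peak, at 8442256 to 8442595 on chromosome II, had 135 in the series list (rank 1897) and 82.6 in replicate 2, 341 bp upstream. The eif-3.E peak, at 10642327 to 10642666 on chromosome I, had 115 in the series list (rank 2150) and 66.3 in replicate 2, 216 bp upstream and 532 bp upstream of the divergent gene B0511.17. The eif-3.H peak, at 4444333 to 4444672 on chromosome I, had 79.9 in the series list (rank 2834) and 47.5 in replicate 2, and its summit lay 216 bp upstream of eif-3.H but 154 bp upstream of the divergent gene C41D11.3; a second, weaker series summit lay in the eif-3.H window. In the unthresholded list of replicate 1 these 4 had signals from 28.7 at eif-3.H to 53.7 at eif-3.G. The other 4 eIF3 genes had no peak in the series list: eif-3.J (71.8 in the unthresholded series list), eif-3.K (47.1) and eif-3.F (40.3) had unthresholded summits, and eif-3.L had none.

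The eIF4E genes were the family in which members with and without a promoter peak stood side by side, since ife-3 had one and ife-1, ife-2, ife-4 and ife-5 did not. The ife-3 peak, at 8100 to 8400 on chromosome V, close to the chromosome's end, had a signal of 557 in the series list (rank 624), 239 in replicate 1 and 317 in replicate 2, 423 bp upstream. In the unthresholded series list ife-1, which acts in the germ line, had 64.2 and ife-5 had 19.3, while ife-2 and ife-4, both on the X chromosome, had no summit in the window. The ife-3 signal was thus above the other 4 in each list. At ifg-1, the eIF4G gene, the peak at 8216463 to 8216699 on chromosome II had 338 in the series list (rank 924), 116 in replicate 1 and 227 in replicate 2. Its summit lay 643 bp upstream of ifg-1 and 37 bp inside the divergent gene M110.3, in that gene's UTR.

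Among the remaining genes placed under initiation by name alone, eif-2A and eif-1.A had peaks. The eif-2A peak, at 10416597 to 10416735 on chromosome II, had 194 in the series list (rank 1396), 109 in replicate 1 and 87.4 in replicate 2, 152 bp upstream, and was the single peak of the 18 in both thresholded replicate lists with a lower signal in replicate 2. The eif-1.A peak, at 4810396 to 4810735 on chromosome IV, had 129 in the series list (rank 1951) and 68.0 in replicate 2, and 61.5 in the unthresholded list of replicate 1. It lay 368 bp upstream, and 592 bp upstream of the divergent gene H06H21.37. No series peak stood at eif-1, eif-2D, eif-6, which keeps the large ribosomal subunit from joining early, or eif-4A3, a core protein of the exon junction complex. Their unthresholded series signals were 64.3 at eif-1, 36.3 at eif-2D, 89.1 at eif-6 and 52.4 at eif-4A3.

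Of the termination factors, erfa-1 encodes eRF1, which reads the stop codon. Its peak, at 6433636 to 6433898 on chromosome V, had a signal of 459 in the series list (rank 744), 157 in replicate 1 and 315 in replicate 2. The summit lay 355 bp upstream of erfa-1 and 277 bp upstream of the divergent gene gad-1. Its partner erfa-3, the eRF3 gene, had 58.0 in the unthresholded series list, with 23.8 in replicate 1 and 37.0 in replicate 2.

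The authors' threshold divides the weakest of these peaks. The deposited score of a peak, which rises with its repeatability and stops at 1000, had a minimum of 830 in the thresholded lists, and 22 of the 24 peaks had the full 1000, against 93.9% of all promoter peaks. The other two, just inside the threshold, were eif-3.H at a score of 969 and eif-2alpha at 889. Just outside it, in the unthresholded series list, eif-3.J scored 829 and eif-6 scored 807. Their signals of 71.8 and 89.1 nevertheless lay above the 68.6 of eif-2alpha. The next lower score in that list was 510 at eif-2Bbeta. In the unthresholded conservative list the scores were 681 at eif-2alpha, 489 at eif-3.H, 90 at eif-6 and 69 at eif-3.J. How near a peak came to the threshold thus differed between the lists. Each replicate also called 1 gene that the series list did not. These were eif-1 in replicate 1, with a signal of 19.9, and eif-6 in replicate 2, with 67.1. The eif-1 call, counted among the 10 initiation genes of replicate 1, ranked 2186 of 2219 with a deposited −log10 q of 0.215. It lay 69 bp inside the gene, while the unthresholded series summit lay 454 bp upstream.

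The peak was overlapped by at least 1 bp in both thresholded replicate lists at 18 of the 24 genes (75%), against 69.0% of the 2030 promoter peaks. At 5 genes it was overlapped in replicate 2 alone, and at eif-2alpha in neither. In the unthresholded replicate lists all 24 were overlapped in both. At the 18 genes the signal in replicate 2 over that in replicate 1 had a median of 1.60, from 0.803 at eif-2A to 2.57 at eif-3.B, against a median of 1.43 over all 1940 pairs of overlapping peaks. The summits of the 2 replicates lay a median of 8 bp apart and at most 40 bp, against a median of 11 bp over all pairs. The mean percentile over the 2 lists ran from 31.5 ± 6.71 at eif-3.D to 98.7 ± 0.503 at eef-1A.1 (SD, n = 2), and the widest spread was 43.2 ± 26.7 at eif-3.B (SD, n = 2).

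**Figure D3:**
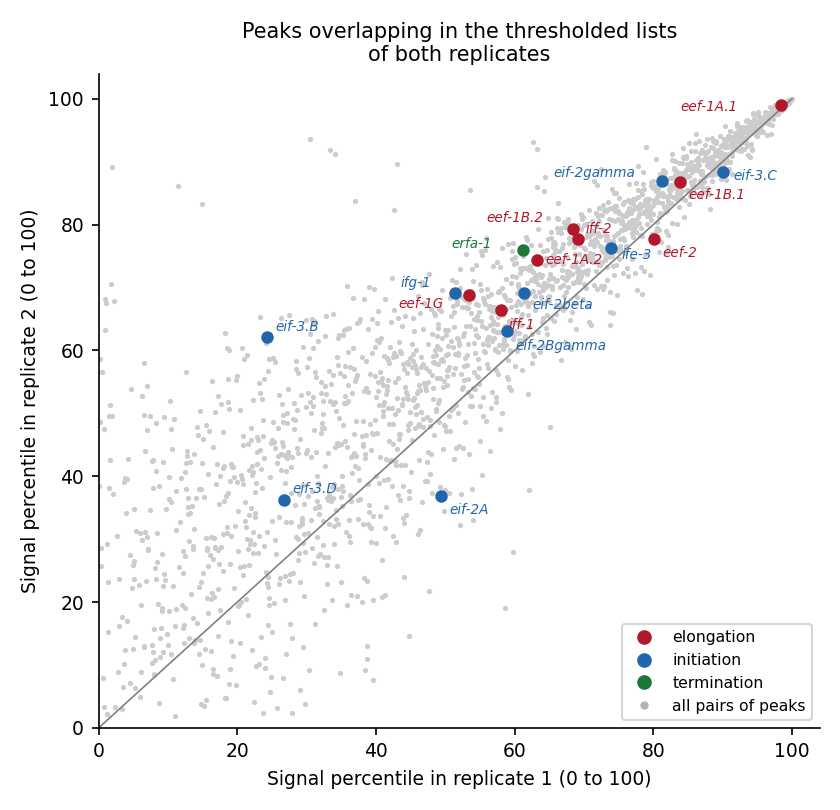
Signal percentile in replicate 2 (y axis) against that in replicate 1 (x axis) for the 18 genes with a promoter summit in both thresholded replicate lists, coloured by role, over all 1940 pairs of overlapping peaks (grey). The line marks equal percentiles; eef-1A.1 stands at the upper right with percentiles of 99.1 in replicate 2 and 98.4 in replicate 1, and eif-3.B lies farthest from the line with 62.1 in replicate 2 and 24.3 in replicate 1.

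The summits lay mostly just upstream of a 5' end of the gene. Measured to the nearest 5' end of the gene itself, 22 of the 24 were upstream and 2 downstream, the median was 231.5 bp upstream, and 19 lay within 400 bp upstream. Measured to the nearest 5' end of any protein-coding gene, the median was 190 bp upstream for the 24 peaks, against 201 bp for all promoter peaks. By annotation 18 summits lay between protein-coding genes and 0 in a coding exon. There were 3 in a UTR (eef-1B.1, eif-2alpha and ifg-1) and 3 in an intron (eif-2beta, eif-2Bgamma and iff-1). The eif-2beta and iff-1 summits lay inside those genes, upstream of a 5' end within the gene. The eif-2Bgamma summit lay in an intron of another gene.

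At 13 of the 24 genes (54.2%) the summit also lay in the promoter window of another gene, against 36.7% of all promoter peaks. The 36.7% counts peaks, whereas the 24 were reached gene by gene. A shared peak can be reached from several genes, so these shares are not like for like. Each of the 13 neighbours ran in the opposite direction. At 5 of the 13 genes, eef-1A.1, eif-3.D, eif-3.H, erfa-1 and ifg-1, the neighbour's 5' end was the nearer one. These 5 peaks thus cannot be given to the translation factor by position. Non-coding genes were not counted as neighbours here. The eif-2Bgamma summit, 909 bp from that gene and within the non-coding gene sup-39, cannot be given to it by position either. Beside the neighbours already named, iff-2 shared its peak with F54C9.14, whose 5' end was 877 bp away, and iff-1 shared its peak with cdk-1, a cell cycle kinase, 594 bp away. A divergent 5' end within 1000 bp stood upstream of 13 of the 24 genes with a peak and 9 of the 17 without (52.9%), against 46.4% of all genes with a promoter peak and 13.5% of all genes without.

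**Figure D4:**
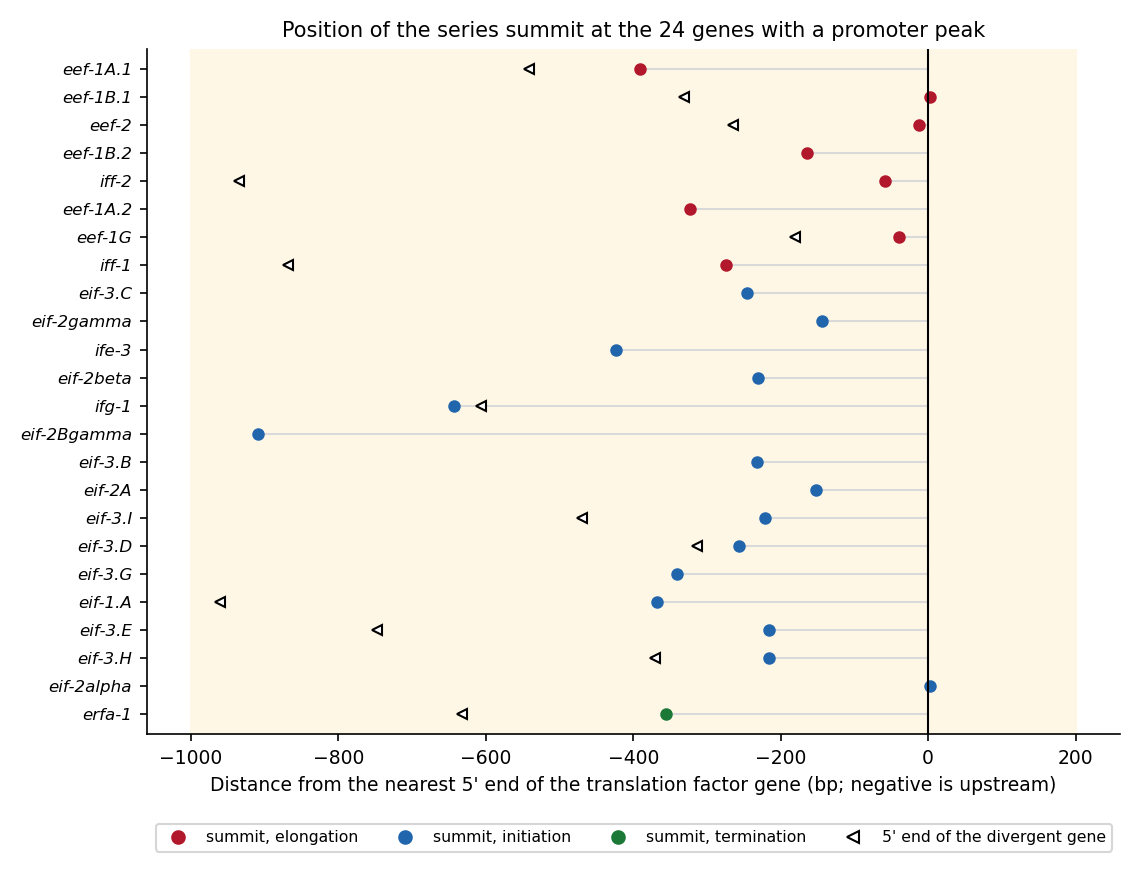
Distance of the series summit from the nearest 5' end of the translation factor gene (x axis, bp, negative upstream) at the 24 genes with a promoter peak, grouped by role and ordered by signal; the shaded band is the promoter window. Open triangles mark the 5' end of the divergent gene that shares the summit at 13 genes; 22 summits lie left of the line at 0 and eif-2Bgamma lies farthest out, at 909 bp.

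By chromosome, the genes with a peak were 8 of 12 on I, 6 of 12 on II, 4 of 6 on III, 2 of 2 on IV, 3 of 6 on V and 1 of 3 on X. Of all protein-coding genes, 21.0% on I, 13.5% on II, 22.8% on III, 14.4% on IV, 7.23% on V and 1.57% on X had a promoter peak. The X chromosome, where ife-2 and ife-4 lie without a summit, thus had the lowest share of genes with a promoter peak of the 6 chromosomes, and eef-1A.2 was the translation factor gene with one there.

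Other genes of translation, outside the naming rule, were counted in the same way. The list of 35 held the initiation factor gene inf-1 beside regulators, cofactors and mitochondrial factors. Of these, 31 names were in the annotation and 16 had a promoter peak (51.6%), against 12.8% of all protein-coding genes. The median signal of the 16 was 187. The inf-1 peak had 362 (rank 886) and shares its summit with flap-1. Counting the nearest gene alone, 8 of the 31 had a peak, against 9.15% of all protein-coding genes. The strongest was abcf-2 with 3311, which shares the summit with ant-1.1 and T27E9.2, followed by larp-1 with 1160, whose summit lay 668 bp upstream and is shared with wip-1, and rack-1, a ribosome-bound scaffold, with 1055. The poly(A)-binding protein gene pab-1 had 753 and shares its summit with the ribosomal protein gene rpl-30, while its paralogue pab-2 had no series peak. Of the kinase genes that regulate translation, gcn-2, an eIF2alpha kinase, had a series peak of 80.8 (rank 2814), shared with Y81G3A.1, while pek-1, another eIF2alpha kinase, let-363, rsks-1 and efk-1 had none. Of the cytosolic ribosomal protein genes 74 of 78 had a promoter peak (94.9%), with a median signal of 1216. Of the aminoacyl-tRNA synthetase genes 10 of 32 had one (31.2%), with a median signal of 471, against the same 12.8% of all genes.

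The DNA under the 24 summits was richer in G and C than its surroundings. The 101 bp windows had a median of 49.5% G and C, from 34.7 to 59.4%, against 44.6% for all promoter peaks. Windows of the same length centred 300 bp to either side had 33.2% at the 24 genes and 34.7% at all promoter peaks. Bases written in lower case in the genome sequence, which marks repeats and low complexity, made up a median of 14.9% of the 24 windows, against 27.7% of all promoter peak windows.

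From all 3250 series summits, which include those of the translation factor genes, 5 words of 6 bases were picked as common at summits and rare 300 bp away; each was searched on both strands. ACCGTA was in the windows of 9 of the 24 genes, against 18.9% of all promoter peak windows. These were eef-1A.1, eef-2, iff-2, erfa-1, ife-3, eif-2A, eif-3.G, eif-3.H and eif-3.I. GGCGCA was in 6 windows (22.7% of promoter peak windows), AGACCC in 5 (17.5%), AAGGCG in 5 (19.95%) and ACGCGC in 4 (15.9%). AAGGCG and GGCGCA can overlap, and 4 genes, eef-1B.1, eef-1B.2, eif-2beta and eif-2gamma, held both. At least 1 of the 5 words was in 17 of the 24 windows, against 56.2% of all promoter peak windows.

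A further 15 motifs, searched on both strands, gave at least 1 match in 13 of the 24 windows, against 72.4% of all promoter peak windows. GTCTC, which overlaps AGACCC when the letters run on, was in 7 windows (41.2% of promoter peak windows), GAGAG in 3 (21.8%) and TTTCAG in 2 (10.2%). TTTCGCG and CGCGAAA, which are the same motif on the 2 strands, were in 2 (9.51%), and TTCCCGC and GGGCGG in 1 each (4.68% and 4.24%). The other 8 motifs were in 0 of the 24 windows. Of promoter peak windows, 2.46% held CACGTG, the E box, 1.48% held GATAAG and 3.35% held TGATAA, both motifs of GATA factors, and 4.04% held TATAAA, the TATA box. The motif CTCCGCC was in 2.32% of them, TATCGAT in 1.82%, TTCNNGAA, the heat shock element, in 3.74% and CTGCGTC in 6.26%. With 100 bp to each side of the summit 24 of the 24 windows held at least 1 of the 15, against 90.9%.

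Longer stretches were shared by pairs of genes. Comparing the 24 windows with each other gave 8 stretches of 12 to 16 bases present in 2 windows, and 13 of the genes held at least 1. The comparison was made after the sequences had been seen. Each stretch was then looked for on both strands of the whole genome, where summit windows of the series list cover 0.327% of the bases. The 16 bases in capitals at eef-1A.1 were also at eef-2, and the genome held 2 other copies, both in promoter peaks. These lay at the ribosomal protein gene rpl-11.2, with a signal of 1088, and in the peak shared by pbs-1, a proteasome subunit gene, and K08D12.3, with 522. The centres of the 4 copies lay 3.5 to 14.5 bp from the summits.

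The 12 bases in capitals at iff-2 and iff-1, the eIF5A paralogues, had 5 other copies in the genome, and 4 of these lay in promoter peaks. Of these 4, 3 were at ribosomal protein genes. They were rps-19, shared with hsr-9 (signal 2054), rps-14 with rpl-36 and ndab-2 (2043), and rpl-12 with lin-54 (1056). The fourth was at attf-2 and F09G2.2 (465). The centres of the 6 copies in peaks lay 4.5 to 30.5 bp from the summits, with a median of 7.5 bp. The 15 bases in capitals at eef-1A.2 were also at eef-1G, and 1 of 3 other copies lay in a promoter peak, at icd-1 and vps-32.1 (531); icd-1 encodes a subunit of the complex that binds nascent chains.

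The remaining 5 stretches, like that of eef-1A.2 and eef-1G, had most of their other copies outside peaks. The 13 bases in capitals at erfa-1 were also at eif-2gamma, with 1 of 3 other copies in a peak, at ced-2 and set-23 (260). A stretch of 12 bases at eif-3.C and eif-3.D had 21 other copies, 7 of them in promoter peaks. The 14 bases in capitals at eef-1B.2 were also at eif-2gamma, and of 90 other copies 22 lay at a series summit and 17 at a promoter summit. A stretch of 14 bases at eif-2gamma and ifg-1 had 1229 other copies, of which 27 lay at a series summit (2.20%). One of 12 bases at eef-1B.1 and eif-2gamma had 21 other copies, of which 0 did. At eif-2gamma these 12 bases overlap the 14 shared with eef-1B.2.

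**Figure D5:**
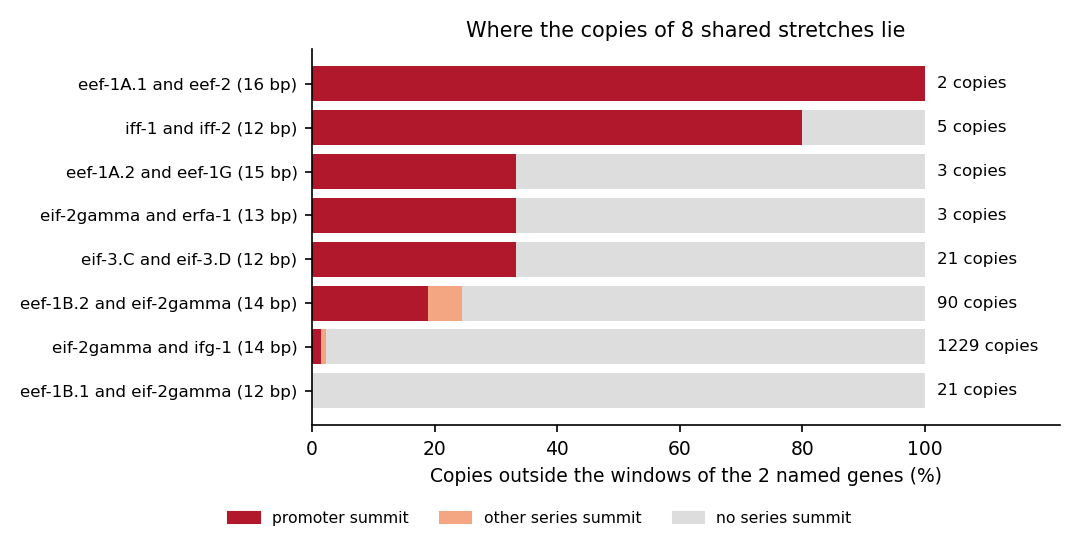
Share of the other genome copies of each shared stretch (x axis, %) that lie in the 101 bp window of a promoter summit, of another series summit or of none; rows name the 2 genes whose windows gave the stretch and its length. The number of other copies stands at the right, the 2 windows of the named genes being left out; both other copies of the eef-1A.1 and eef-2 stretch and 4 of 5 of the iff-1 and iff-2 stretch lie in promoter peaks, against 27 of 1229 at any series summit for the eif-2gamma and ifg-1 stretch.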

How the data were processed

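Peak lists of F33H1.4-eGFP chromatin immunoprecipitation from 2 biological replicates of whole young adults were used, 4 thresholded and 4 unthresholded, on build ce11 (WBcel235), per the labels. The replicate lists come from 1 replicate each and the series and conservative lists from both, per the file notes. How reads were aligned and peaks called is not given in the sources used here. Each peak's deposited signal, score and −log10 q were computed by the authors; unthresholded lists also hold a deposited −log10 of the irreproducible discovery rate. The deposited signal has no stated scale, and the read depth is not given.

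Coordinates are 1-based. The annotation, Ensembl release 115, gave 29314 pairs of gene and 5' end, each with a promoter window of 1000 bp before and 200 bp after it. A percentile is the rank of a peak's signal among all peaks of its list, 100 being the strongest. Sequence came from the RefSeq genome of WBcel235; the RefSeq table of promoters was not used here, and the gene-start window of 250 bp before to 50 bp after was read from the genome. The gene names that form the 41 genes, the roles, the other gene lists and the 15 motifs were chosen with earlier results of these data known, so no test was made over them, and shares and medians are descriptions beside all genes or all promoter peaks. Every one of the 41 genes is named, with all values for those with a series peak. Windows on chromosome I, among them that of eif-2gamma, were not printed. Nor were windows that reach an annotated exon or lie outside the 12 strongest peaks of the other chromosomes. Assignment of summits to genes was tested on simulated data. Software was pandas 2.3.3 with numpy 2.4.6 in Python 3.11.15, scipy 1.17.1 for intervals, and matplotlib 3.10.9 for plots. Alternatives were the other lists, other windows, the nearest gene, any overlap and collapsed peaks.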

Additional observations from a re-analysis of the deposited data

How the results depend on the processing

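With each replicate's list in place of the series list, the genes with a peak numbered 19 to 24, initiation genes 10 to 15, other translation genes 14 to 18 and shared summits 10 to 14, and the median percentile was 61.4 to 68.9; elongation stayed at 8, termination at 1 and mixed families at 1. The stronger 50% of the series list gave 17 genes and 8 initiation genes, 10 other translation genes, 8 shared summits and a median percentile of 54.2, with fewer peaks by construction. Counting the nearest gene alone gave 20 genes, losing eef-1A.1, eif-3.D, erfa-1 and ifg-1. Elongation fell to 7 genes, termination to 0 and other translation genes to 8, and 2 families held members with and without a peak. The median summit lay at -218.5 bp and, by construction, 0 summits were shared. A window of 500 bp upstream to 100 bp downstream gave 22 genes (without eif-2Bgamma and ifg-1) and 8 shared summits. Of the 24 windows 24 held a motif with 100 bp to each side, and 24 with the gene-start window. The wider window, any overlap, and collapsing of overlapping peaks, added after seeing the data, each gave 24 genes. Of all protein-coding genes, 8.52% had a peak with the stronger 50%, 9.15% by nearest gene and 10.2% with the narrower window. That share was 15.8% with the wider window, 13.3% by any overlap and 12.7% with collapsed peaks. Overlap in both replicates gave 17 genes at 50% reciprocal overlap, 18 with summits within 100 bp and 24 in unthresholded lists. Of 164 percentiles and paralogue ratios with a spread between replicates, 41 moved beyond it. Of 39 percentiles of the 6 genes without such a spread, 19 changed by any amount, the widest being eif-2alpha, at 91.3 with the wider window and 2.52 with collapsed peaks against 6.63; eif-3.H was 1.46 by nearest gene against 12.8. Of 40 motif counts, 25 moved beyond 1.5 times. No paired analysis was possible because 1 group was assayed. With 2 replicates and no depth, a gene without a peak is below the authors' threshold, not shown to be unbound.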

Other observations

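Several translation factor genes lie close behind another gene on the same strand, as genes in worm operons do; operon annotation was not used here. A same-strand gene within 1000 bp upstream stood before 7 of the 24 genes with a peak and 6 of the 17 without, against 25.3% of all genes with a promoter peak and 29.4% of all genes without. Of these 13 runs of same-strand genes, the first gene had a promoter peak in 4 and none in 9. The weakest peak, at eif-2alpha, follows phb-1, a mitochondrial prohibitin, by 133 bp, and phb-1 had a promoter peak with a signal of 1111. The eif-3.C gene follows sys-1, a beta-catenin, by 401 bp, and sys-1 had a peak of 508 with its summit at -942 bp. The eif-2gamma gene follows a run of 3 genes, of which the first, Y39G10AR.9, had a peak of 308 and the nearest, tbca-1, had none. Of the 17 genes without a peak, eif-3.F stands 116 bp behind wbp-2 in a run whose first gene, egli-1, had a peak of 351. The first gene had no peak before eef-1B.2, eif-2Bgamma, eif-3.G, ife-3, eif-3.J, eif-3.K, ife-1, ife-4 and ife-5. Before eef-1B.2, however, the nearest gene of the run, fcd-2 at 295 bp, had a promoter peak.

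Peaks of 340 bp with the summit at the midpoint made up 6 of the 24 peaks, at eif-3.D, eif-3.G, eif-1.A, eif-3.E, eif-3.H and eif-2alpha, the 6 with the lowest signals. Of all promoter peaks 34.7% had that width. The 24 peaks were 134 to 413 bp wide, with a median of 279.5 bp against 340 bp for all promoter peaks.

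Annotated non-coding genes lay within 200 bp of the summit at 4 of the 24 genes. Beside those at eif-2Bgamma they were cel-mir-5549 at 18 bp from the eef-1A.1 summit, R03G5.8 at 54 bp from that of eef-1A.2 and F54H12.9 over that of eef-1B.1.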
